A study of Mus musculus with 24 samples.

Results

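The genes described here are 42 genes of endoplasmic reticulum (ER) stress and protein folding, measured in whole mouse colon. They were chosen by gene symbol and sorted by role into sensors, the Atf4 branch, chaperones and folding enzymes, degradation, and translocation and glycosylation. They make up 42 of the 18193 genes that are named by 1 symbol on the arrays, and all 42 had at least 1 probe set. Their 103 probe sets comprise 87 on the 430A array and 16 on the 430B array. A filter on low signal kept 89 of these and 40 of the 42 genes, so Trib3 and Nucb2 were not tested.

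The arrays are the Affymetrix 430A and 430B of the mouse MOE430 set, each hybridised with total RNA of 12 samples. All mice were BALB/c, 6 to 8 weeks old, received their diet from 2 days before an enema (day 0) and were killed on day 7. There were 4 groups of 3 samples: standard diet with control enema, standard diet with TNBS enema, curcumin diet (2% curcumin) with control enema, and curcumin diet with TNBS enema. TNBS, trinitrobenzene sulfonic acid, is a hapten used to provoke colitis, and curcumin is the yellow polyphenol of turmeric. No mutant allele or transgene is named for any group, although the design text also mentions wild-type littermates. RNA was pooled from 3 mice per diet and enema group, and whether a group's 3 samples came from different pools is not stated. P-values therefore measure only the spread between these samples, which may be technical, and an exact permutation test of 3 against 3 samples cannot go below 0.10.

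When unfolded proteins accumulate in the ER, the kinase Eif2ak3 (PERK) slows translation and raises Atf4, the nuclease Ern1 (IRE1) splices the Xbp1 message, and Atf6 is cut to release a transcription factor. Xbp1 and Atf6 drive chaperones, folding enzymes and the degradation of misfolded proteins, while Atf4 drives amino acid synthesis and the stress factor Ddit3 (CHOP). In the colon the pathway is best known from goblet and plasma cells, which secrete large amounts of protein, and Ern2 is a form of IRE1 typical of mucus-secreting epithelium.

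The promoters of 36 of the 42 genes were found in RefSeq (GRCm38.p6), as windows from 250 bases before to 50 bases after a start. Atf6, Ern2, Manf, Hyou1, Derl1 and Sec61a1 were not matched. On either strand, 9 of the 36 held an ER stress response element, CCAAT and CCACG separated by 9 bases. Of all 27025 genes with a promoter, 37 held it (0.137%). The 9 members were Hspa5, Hsp90b1, Dnajc3, Pdia6, Calr, Canx, Creld2, Syvn1 and Derl3. The shorter second form, ATTGG and CCACG separated by 1 base, was in Dnajb11 and Herpud1 and in 0.0444% of the 27025 genes. The Xbp1 motif TGACGTGG was in 0 of the 36 and in 0.714% of the 27025 genes. The Atf4 motif TGATGNAA was in 4 (Trib3, Asns, Chac1 and Herpud1) and in 4.51% of the 27025 genes. In Herpud1, the only member with motifs of 2 kinds, they lie apart. The first element was originally defined from chaperone promoters of this kind, so its share among the members is not independent evidence. The windows printed here belong to members whose values are given sample by sample further on, for Chac1 only in the control enema groups. They come from the chaperone, degradation and Atf4 branches. They are written 5′ to 3′ on the strand of the gene, with the motifs in capitals. In Creld2, Chac1 and the downstream copy of Hsp90b1 the capitals are the reverse complement of the motif, as is the first motif of Herpud1.
Hspa5 (chr2:34772013-34772055, plus strand): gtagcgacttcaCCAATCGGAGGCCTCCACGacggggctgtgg
Hsp90b1 (chr10:86705521-86705668, minus strand): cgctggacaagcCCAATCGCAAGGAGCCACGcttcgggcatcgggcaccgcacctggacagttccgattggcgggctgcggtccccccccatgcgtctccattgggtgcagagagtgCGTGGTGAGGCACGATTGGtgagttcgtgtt
Creld2 (chr15:88819508-88819550, plus strand): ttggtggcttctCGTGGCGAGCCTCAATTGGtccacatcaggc
Herpud1 (chr8:94386305-94386399, plus strand): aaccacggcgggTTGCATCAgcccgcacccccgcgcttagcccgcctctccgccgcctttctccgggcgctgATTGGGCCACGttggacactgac
Asns (chr6:7693213-7693244, minus strand): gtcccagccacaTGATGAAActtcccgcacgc
Chac1 (chr2:119351037-119351068, plus strand): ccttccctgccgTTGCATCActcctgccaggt
The Hspa5 element begins 65 bases before the start and the Asns motif 23 bases before it. A match to letters is a description and not a measured binding site.

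Signals are brightness values on a linear scale. Differences below are log2 differences from limma with their standard error (SE), fitted to log2(signal + 16), a scale that understates the change of dim probe sets. The gene's own probe set is the brightest tested one, on 430A where there was one and on 430B for Ern1 and Srp72. On 430A, the arrays fell into 2 sets on the first principal component (32% of variance). Each group of 3 samples was split unevenly between them. Set 1 held standard control replicate 1, standard TNBS replicates 2 and 3, curcumin control replicates 2 and 3, and curcumin TNBS replicate 1. A difference within a set therefore compares 1 array with 2, and the uneven split runs along the interaction of diet and enema. On 430B, replicates 2 and 3 of the curcumin TNBS group lay apart on the first component (36.2% of variance). They were more than 5 median absolute deviations from the median of all 12 arrays. Pancreatic acinar genes were present at very different levels, since the mean log2 signal of 11 acinar markers ran from 7.01 to 13.26. Their summed signal ran from 8218 to 128492 in the standard controls, 49618 to 126829 after TNBS, 6152 to 62065 in the curcumin controls and 6930 to 99796 after TNBS on curcumin. It was near the low end in standard control replicate 1, curcumin control replicates 1 and 2 and curcumin TNBS replicate 2, while all 3 standard TNBS samples were at 11.64 or above. Acinar cells are rich in ER proteins, so the medians over all members are also given with this marker level as a term. The colonic labels held in all 12 samples, with Epcam, an epithelial adhesion protein, at 8586 to 11753 and the colonic carbonic anhydrase Car1 at 12310 to 19922.

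On the standard diet, the members were mostly higher after TNBS than after the control enema, but none passed the threshold. Manf, a secreted ER stress factor, was 1.67-fold higher, Asns, the asparagine synthetase, 1.75-fold, Sec61b, a subunit of the import channel, 1.44-fold, and Hyou1, a large chaperone of the Hsp70 family, 1.42-fold. Of the 40 members tested, 33 were higher and 7 lower, with a median difference of 0.22 against -0.01 for all 12911 genes tested. At an adjusted p under 0.05 (limma, Benjamini-Hochberg), 0 members were called, beside 0.00739% of all probe sets. At an unadjusted p under 0.05, 12 members were higher, beside 3.94% of all genes, and 2 were lower, beside 4.45%. All arrays of one group lay above all arrays of the other in 14 members for TNBS, beside 7.67% of all genes, and in 2 for the control enema, beside 7.30%. The median was 0.22 with the acinar term and, in a separate fit, 0.21 with a term for the array set. Within either set it was 0.11 and 0.30.

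Under the control enema, the members were mostly higher on curcumin than on the standard diet, again with none past the threshold. Ddit3, the stress-induced transcription factor CHOP, was 2.55-fold higher, Hspa5, the Hsp70 chaperone of the ER lumen known as BiP, 1.80-fold, and Hsp90b1, its Hsp90 counterpart Grp94, 1.55-fold. Hyou1 was higher by 0.59 ± 0.13 on the log2 scale. Of 40 members, 35 were higher and 5 lower, with a median of 0.23 against -0.00 for all genes. At an adjusted p under 0.05 (limma, Benjamini-Hochberg), 0 members were called, beside 0.00369% of all probe sets. At an unadjusted p under 0.05, 15 were higher, beside 1.70% of all genes, and 0 lower, beside 1.88%. The arrays did not overlap in 13 members that were higher, beside 3.79% of all genes, and in 0 that were lower, beside 4.05%. The acinar markers had a median difference of -2.27 over 11 markers, but 2.77 and -5.57 within the 2 array sets. The arrays of the 2 groups overlapped in all 11. With the acinar level as a term the members' median on 430A was 0.25. Fitting the array set gave 0.23, and the sets taken singly gave 0.22 and 0.25.

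On the curcumin diet, the members were mostly lower after TNBS than after the control enema. Creld2, an ER-resident protein induced by stress, was 1.77-fold lower, Hyou1 1.31-fold and Hsp90b1 1.26-fold, none of them past the threshold, and 1 probe set of Srp72, described further on, fell. Of 40 members, 7 were higher and 33 lower, with a median of -0.18 against -0.01 for all genes. At an adjusted p under 0.05 (limma, Benjamini-Hochberg), 1 member was called through that probe set. This is 1 of the members' 89 tested probe sets, beside 0.203% of all tested probe sets on both array types. The members had 15 tested probe sets on 430B, and a share over all probe sets on that array alone was not computed. At an unadjusted p under 0.05, 0 members were higher, beside 4.43% of all genes, and 7 were lower, beside 6.40%. The arrays did not overlap in 0 members that were higher, beside 5.62%, and in 9 that were lower, beside 6.41%. On 430A the median was -0.16, and it was -0.19 with the acinar term, -0.13 with the array set, and -0.18 and -0.06 within the sets.

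Under TNBS, the difference between the diets was smaller and went both ways. Asns was 1.75-fold lower on curcumin and Edem2, which feeds misfolded glycoproteins into degradation, 1.29-fold lower, while Dnajb9, the Xbp1-dependent co-chaperone ERdj4, was 1.36-fold higher, none past the threshold. Of 40 members, 12 were higher and 28 lower, with a median of -0.11 against -0.00 for all genes. At an adjusted p under 0.05 (limma, Benjamini-Hochberg), 2 members were called, Srp72 and Atf6, each through 1 probe set on 430B. These are 2 of the members' 89 tested probe sets, beside 0.805% of all tested probe sets on both array types. The members had 15 tested probe sets on 430B, and a share over all probe sets there was not computed. At an unadjusted p under 0.05, 2 members were higher, beside 6.75% of all genes, and 9 lower, beside 8.74%. The arrays did not overlap in 3 that were higher, beside 9.46%, and in 12 that were lower, beside 10.3%. On 430A the median was -0.09, also with the acinar term, and within the sets it was -0.03 and -0.14.

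**Figure D1:**
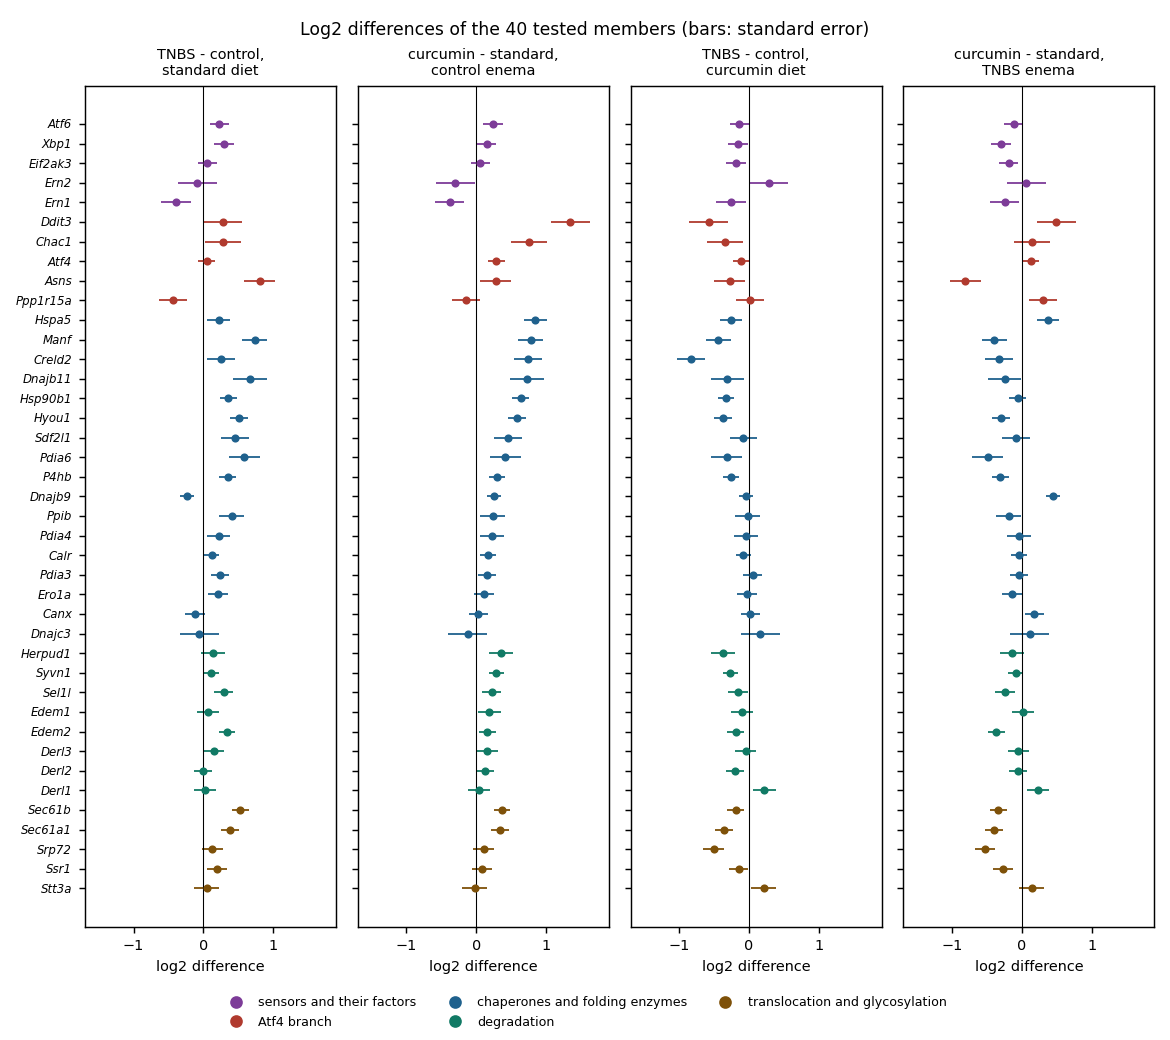
Log2 difference of each of the 40 tested members on the x axis of 4 panels, 1 per comparison, with genes in rows coloured by role and bars for the standard error. Most points lie right of 0 for TNBS on the standard diet (33 of 40) and for curcumin under the control enema (35 of 40), and left of 0 for TNBS on curcumin (33 of 40).

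The interaction, which is the TNBS difference on curcumin minus that on the standard diet, was negative in 32 of 40 members and positive in 8. Its median was -0.40 against -0.00 for all genes. Manf had -1.18 ± 0.26 (SE), Hyou1 -0.89 ± 0.18, Sec61b -0.71 ± 0.17 and Hsp90b1 -0.69 ± 0.17, with limma adjusted p-values of 0.221, 0.221, 0.239 and 0.249. At an adjusted p under 0.05, 1 member was called, again through 1 probe set of Srp72. That is 1 of 89 probe sets, beside 0.0332% of all tested probe sets on both array types. The probe set is 1 of the 15 tested on 430B, where a share over all probe sets was not computed. At an unadjusted p under 0.05, 0 were positive, beside 5.80% of all genes, and 15 negative, beside 7.27%. The median was -0.40 with the acinar term, -0.35 with the array set, and -0.34 and -0.40 within the sets.

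The TNBS differences on the 2 diets share no arrays, but both depend on the array sets. In set 1, TNBS arrays outnumbered control arrays on the standard diet, and the reverse held on curcumin. A difference between the sets would thus have opposite signs on the 2 diets, and the counts below carry no term for it. With that term the members' medians on 430A were 0.21 on the standard diet and -0.13 on curcumin. They were 0.11 and -0.18 within set 1, and 0.30 and -0.06 within set 2. In 30 of 40 members (75%) the difference was positive on the standard diet and negative on curcumin, a pattern held by 30.3% of all 12911 genes. The opposite pattern was seen in 4 members, 3 were higher after TNBS on both diets and 3 lower on both. In Hsp90b1, Hyou1, Sec61a1 and Srp72 the arrays overlapped in neither comparison, which is 4 of 40 (10%) beside 1.03% of all genes.

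**Figure D2:**
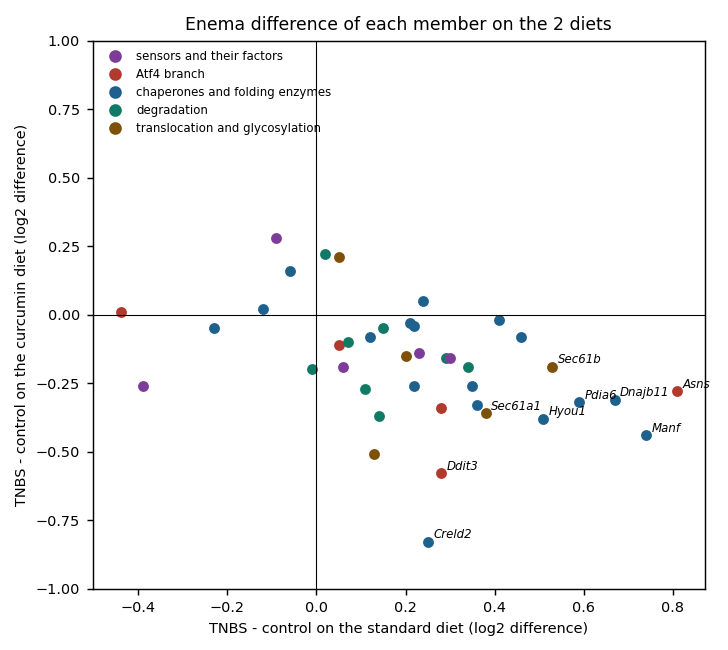
TNBS minus control difference of each of the 40 tested members (log2), on the standard diet on the x axis and on the curcumin diet on the y axis, coloured by role. The lower right field, higher on the standard diet and lower on curcumin, holds 30 of the 40 points, with Manf at 0.74 and -0.44.

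Sample by sample, the median deviation of the 38 members on 430A from their own means was -0.12 ± 0.08 (SD, n = 3) in the standard control group and 0.08 ± 0.11 in the standard TNBS group. It was 0.13 ± 0.10 in the curcumin control group and -0.02 ± 0.03 in the curcumin TNBS group. The standard controls were all below 0 (-0.05, -0.11 and -0.21) and the curcumin controls all above it (0.03, 0.12 and 0.24). The standard TNBS samples, at 0.12, -0.05 and 0.15, overlapped both.

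**Figure D3:**
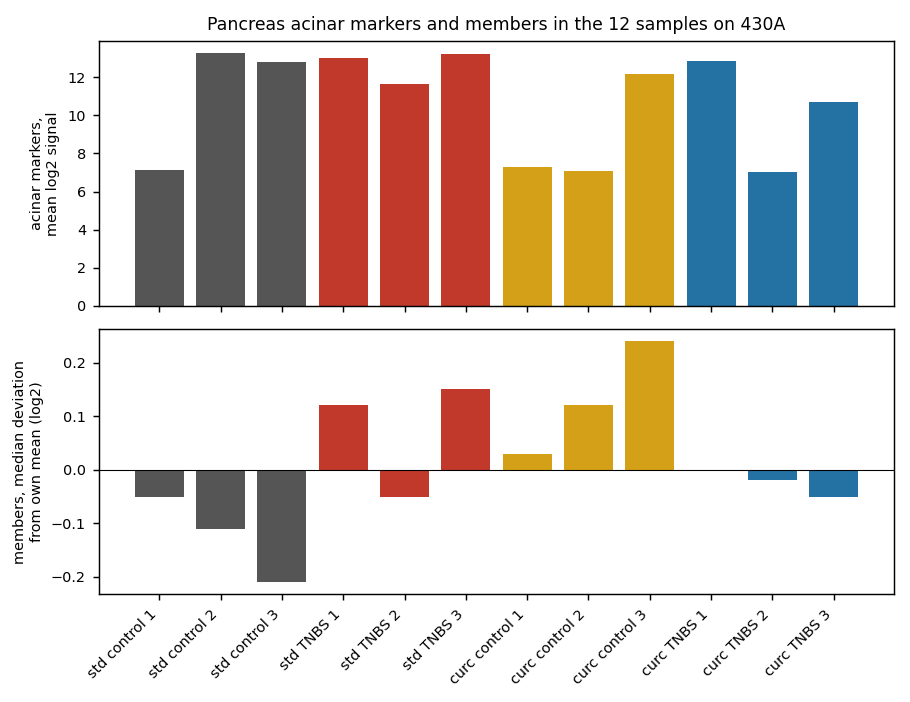
Mean log2 signal of 11 pancreatic acinar markers (upper panel) and median log2 deviation of the 38 members on 430A from their own means (lower panel), 1 bar per sample, coloured by group. The acinar bars vary within groups (7.12 to 13.26 in the standard controls), while the member bars are below 0 in all 3 standard controls and above 0 in all 3 curcumin controls.

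Among the sensors and their factors, no gene's own probe set passed the test in any comparison, and of the 5 only Xbp1, in the interaction, had an unadjusted p under 0.05. The branch median was 0.06 for TNBS on the standard diet, 0.06 for curcumin under the control enema, -0.16 for TNBS on curcumin and -0.19 for curcumin under TNBS. Xbp1 read 7974, 6320 and 6350 in the standard controls, 8105, 9078 and 8094 after TNBS, 6347, 7530 and 9204 in the curcumin controls and 7423, 6430 and 6641 after TNBS on curcumin. The 3 standard TNBS samples were above all standard controls and above all curcumin TNBS samples. The difference was 0.30 ± 0.14 for TNBS on the standard diet and -0.30 ± 0.14 for curcumin under TNBS (limma adjusted p = 0.554 and 0.494). Its other 3 probe sets gave -0.12 to 0.21 and -0.16 to 0.11 there, and these arrays do not tell the spliced Xbp1 message from the unspliced one.

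Eif2ak3, the PERK kinase, read 848.5 to 967.9 in the standard controls, 929.8 to 950.7 after TNBS, 767 to 1030 in the curcumin controls and 765.3 to 880.7 after TNBS on curcumin. These ranges overlapped except that the curcumin TNBS samples lay below all standard TNBS samples, by -0.19 ± 0.14 (limma adjusted p = 0.693). Ern2 read 889, 720.8 and 709.9 in the standard controls, 503, 881.4 and 846.7 after TNBS, 381.4, 724.3 and 863.5 in the curcumin controls and 894.5, 723.3 and 666.1 after TNBS on curcumin. It overlapped between the groups in all 4 comparisons, and its differences lay between -0.30 and 0.28.

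Ern1, measured on 430B, was at 2827, 2989 and 2523 in the standard controls and at 1889, 2478 and 2028 after TNBS. All 3 TNBS samples were lower, by -0.39 ± 0.21 (limma adjusted p = 0.978), against the direction of most members. For curcumin under TNBS its difference was -0.25 with all arrays and 0.21 without the 2 arrays that lie apart. Leaving those out keeps 1 curcumin TNBS array on 430B, which is then assumed to vary like the other groups, so that a p-value without them is a weak test. A second Ern1 probe set on 430B gave 0.73 ± 0.26 there (limma adjusted p = 0.117), and 0.35 without them.

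Atf6, whose cleaved form drives chaperone genes, had 3 tested probe sets. Its own probe set on 430A read 644.8, 482.6 and 590.9 in the standard controls, 634.6, 696.6 and 673 after TNBS, 655.4, 749.2 and 630.3 in the curcumin controls and 592.2, 549.2 and 700.9 after TNBS on curcumin. These values overlapped in every comparison, with differences of 0.23 ± 0.14, 0.24 ± 0.14, -0.14 ± 0.14 and -0.12 ± 0.14 in the order used above. On 430B, a dimmer probe set read 185, 180.4 and 213.7 in the standard controls, 400, 302.7 and 380.7 after TNBS, 342.8, 272.2 and 382.9 in the curcumin controls and 150.2, 136 and 82.7 after TNBS on curcumin. The curcumin TNBS samples were below all 9 others, and the standard controls below the other 6. For curcumin under TNBS it fell by 1.47 ± 0.31 (limma adjusted p = 0.0428), 2.76-fold. With the 1 curcumin TNBS array that does not lie apart, the difference was -1.17 (adjusted p = 0.634, from an arm of 1 array). The remaining probe set on 430B gave -0.35 ± 0.15 (limma adjusted p = 0.17).

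In the Atf4 branch, Ddit3 had the largest difference of all members under the control enema. Its own probe set read 159.4, 428.7 and 269.1 in the standard controls, 344.2, 247.2 and 405.3 after TNBS, 647.3, 822.9 and 647.9 in the curcumin controls and 414.2, 486.8 and 498.2 after TNBS on curcumin. The curcumin controls were above all other 9 samples, and the curcumin TNBS samples above all standard TNBS samples. The difference of curcumin from the standard diet under the control enema was 1.35 ± 0.28 (limma adjusted p = 0.835), and 1.49 with the acinar term. Within the array sets it was 2.09 and 0.90. A probe set on 430B annotated to Ddit3 gave -0.24 ± 0.51 there and -0.88 ± 0.51 for TNBS on the standard diet, so the probe sets of this gene disagree.

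Atf4 itself, the transcription factor of the branch, was at 1444, 1400 and 1345 in the standard controls and at 1689, 1641 and 1819 in the curcumin controls. The groups did not overlap, with a difference of 0.29 ± 0.12 (limma adjusted p = 0.998), while the second tested probe set of Atf4 gave 0.09. Its differences in the other comparisons were 0.05, -0.11 and 0.13.

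Asns read 728.6, 942 and 779.3 in the standard controls, 1312, 1160 and 1943 after TNBS, 823.4, 863.2 and 1361 in the curcumin controls and 876.2, 746.2 and 818.4 after TNBS on curcumin. The standard TNBS samples were above all standard controls and above all curcumin TNBS samples. The differences were 0.81 ± 0.22 for TNBS on the standard diet (limma adjusted p = 0.196) and -0.81 ± 0.22 for curcumin under TNBS (adjusted p = 0.198). Asns moved most among the members with the acinar term, to 0.69 and -0.63, and its second probe set gave 1.14 ± 0.34 for TNBS on the standard diet. The part of the acinar level in these differences was not tested beyond that term.

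Chac1, which degrades glutathione, read 246.7, 200 and 282.6 in the standard controls and 550.6, 388.8 and 340.4 in the curcumin controls, without overlap, a difference of 0.76 ± 0.26 (limma adjusted p = 0.998). Ppp1r15a (GADD34), the phosphatase subunit that restores translation, went against the branch after TNBS on the standard diet, at -0.44 ± 0.20 (limma adjusted p = 0.535). Trib3, a pseudokinase induced by Atf4 and Ddit3, was too dim to test, at 82.7 to 230.6 and 21.8 to 214.6 on its 2 probe sets. The branch as a whole had medians of 0.28, 0.29, -0.28 and 0.14 over its 5 tested genes. With the acinar term these were 0.19, 0.45, -0.27 and 0.14.

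**Figure D4:**
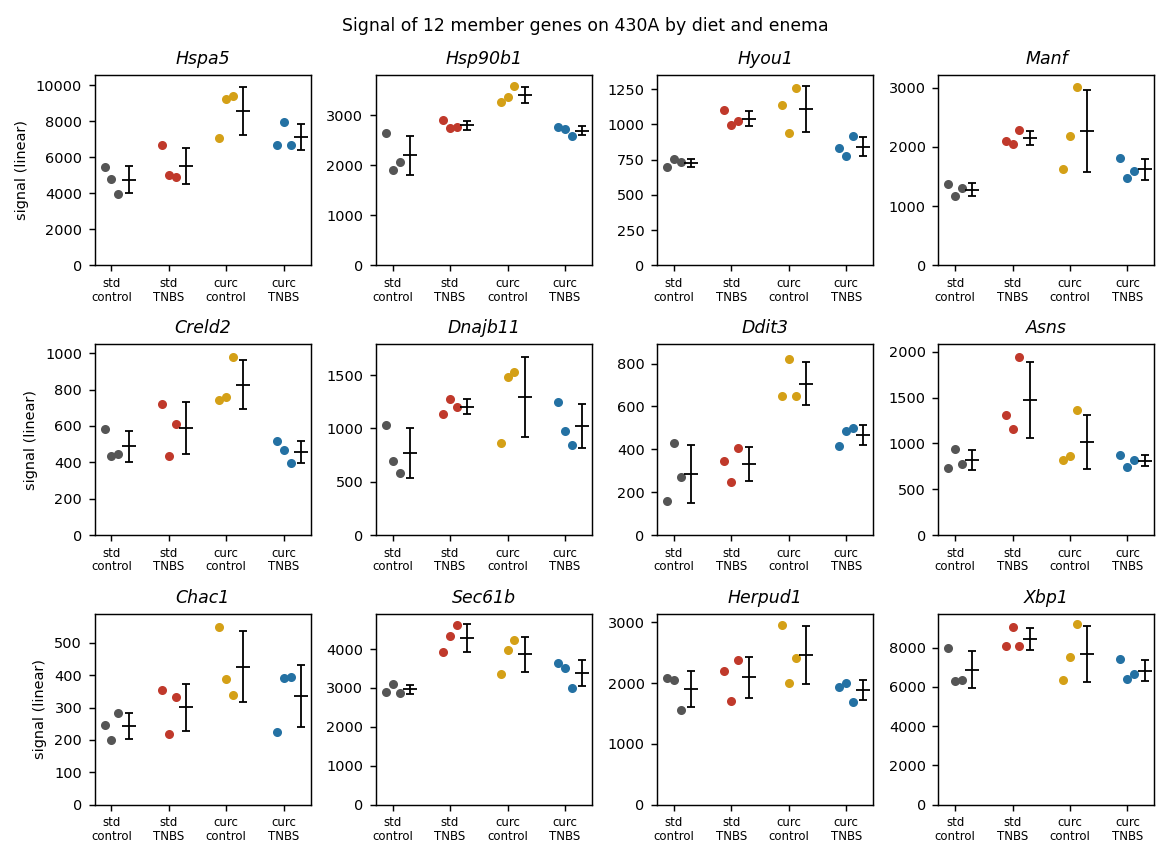
Signal on 430A (linear scale from 0) of 12 members in the 4 groups of 3 samples; points are samples and bars are the mean ± SD. Ddit3, Hspa5 and Hsp90b1 were highest in the curcumin controls, and Asns in the standard TNBS group.

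The chaperones and folding enzymes are the largest branch. Of 17 tested, 8 were higher at an unadjusted p under 0.05 for TNBS on the standard diet, with 1 lower, beside 3.94% and 4.45% of all genes, and 9 were higher for curcumin under the control enema, beside 1.70%. For TNBS on curcumin 4 were lower, beside 6.40%, and under TNBS 2 were higher and 4 lower on curcumin, beside 6.75% and 8.74%. The branch medians were 0.25, 0.30, -0.08 and -0.09.

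Hspa5 read 5478, 4827 and 3963 in the standard controls, 6693, 4997 and 4913 after TNBS, 7051, 9263 and 9412 in the curcumin controls and 6715, 7953 and 6712 after TNBS on curcumin. All 6 curcumin samples were above the 3 standard samples with the same enema. The difference between diets was 0.85 ± 0.16 under the control enema (limma adjusted p = 0.556) and 0.37 ± 0.16 under TNBS (adjusted p = 0.46). With the acinar term these were 0.81 and 0.33, and within the array sets they were 0.77 and 0.69, and 0.44 and 0.13.

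A second Hspa5 probe set on 430A had the smallest p of any member under the control enema. It read 1849, 1195 and 1584 in the standard controls, 2352, 2314 and 2229 after TNBS, 3311, 4898 and 3444 in the curcumin controls and 2434, 3044 and 2595 after TNBS on curcumin. The curcumin controls were above all 9 other samples and the standard controls below all 9 others. The diet difference was 1.32 ± 0.18 (limma adjusted p = 0.0917), 2.50-fold, and 1.19 with the acinar term. TNBS gave 0.59 ± 0.18 on the standard diet and -0.51 ± 0.18 on curcumin. Another probe set, on 430B, gave -0.09 ± 0.15 for the diet under the control enema, so the probe sets of Hspa5 disagree there.

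Hsp90b1 read 2645, 1904 and 2070 in the standard controls, 2909, 2740 and 2766 after TNBS, 3267, 3363 and 3583 in the curcumin controls and 2766, 2736 and 2591 after TNBS on curcumin. The curcumin controls were above all 9 others, and the standard controls below all standard TNBS samples. The differences were 0.64 ± 0.12 for curcumin under the control enema (limma adjusted p = 0.556), 0.36 ± 0.12 and -0.33 ± 0.12 for TNBS on the standard and the curcumin diet, and -0.06 ± 0.12 for curcumin under TNBS. Its second probe set gave 0.18, 0.12, 0.02 and 0.08.

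Hyou1, which exchanges nucleotide on Hspa5, was at 699.1, 754.9 and 730.8 in the standard controls, 1102, 996.5 and 1024 after TNBS, 1138, 936.8 and 1257 in the curcumin controls and 832.2, 778.6 and 918.1 after TNBS on curcumin. The standard controls were lowest and the curcumin TNBS samples next, without overlap with any other group. The 4 differences were 0.51 ± 0.13, 0.59 ± 0.13, -0.38 ± 0.13 and -0.30 ± 0.13, and within the array sets each of them kept its sign. The limma adjusted p-values were 0.182, 0.978, 1 and 0.455.

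Manf read 1372, 1169 and 1305 in the standard controls, 2099, 2056 and 2281 after TNBS, 1634, 2187 and 3007 in the curcumin controls and 1819, 1471 and 1587 after TNBS on curcumin. The standard controls were below all 9 other samples, and the standard TNBS samples above all curcumin TNBS samples. TNBS on the standard diet gave 0.74 ± 0.18 (limma adjusted p = 0.166), which passed the threshold (adjusted p = 0.0455) only when curcumin control replicate 3 was left out of the shared estimate of spread. Curcumin under the control enema gave 0.78 ± 0.18.

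Creld2 read 585, 433.7 and 446.3 in the standard controls, 719.6, 435.4 and 611.5 after TNBS, 744.8, 757.9 and 980.8 in the curcumin controls and 515.4, 466.8 and 394.7 after TNBS on curcumin. The curcumin controls were above all 9 others. The differences were 0.74 ± 0.20 for curcumin under the control enema and -0.83 ± 0.20 for TNBS on curcumin (limma adjusted p = 1), and within the array sets the second was -0.72 and -0.77.

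Dnajb9 went its own way among the co-chaperones. It read 2304, 2119 and 2183 in the standard controls, 1899, 1800 and 1917 after TNBS, 2898, 2552 and 2502 in the curcumin controls and 2368, 2564 and 2736 after TNBS on curcumin. The standard TNBS samples were below all 9 others and all 6 curcumin samples above all 6 standard samples. The differences were -0.23 ± 0.10 for TNBS on the standard diet and 0.44 ± 0.10 for curcumin under TNBS (limma adjusted p = 0.521 and 0.161). Dnajb11, another co-chaperone of Hspa5, had 0.67 ± 0.24 and 0.73 ± 0.24 for TNBS on the standard diet and curcumin under the control enema. Dnajc3 (p58IPK) had -0.06 and -0.12 on its own probe set, while a dimmer one gave 0.38 ± 0.15 and 0.56 ± 0.15.

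The disulfide isomerases were higher after TNBS on the standard diet by 0.59 ± 0.22 in Pdia6, 0.35 ± 0.12 in P4hb, 0.24 ± 0.13 in Pdia3 and 0.22 ± 0.17 in Pdia4. P4hb and Pdia6 were lower on curcumin under TNBS, by -0.31 ± 0.12 and -0.49 ± 0.22 (limma adjusted p = 0.39 and 0.47), without overlap. The lectin chaperones Calr and Canx, which hold glycoproteins during folding, lay between -0.12 and 0.18 in all 4 comparisons on their own probe sets. The other 2 Calr probe sets gave 0.39 and 0.32 for TNBS on the standard diet. The dimmer Canx probe sets on 430A lay between -0.09 and 0.10. On 430B, the same Canx probe set had mean signals of 11200 in the standard controls and 12200 after TNBS. Its means were 13700 in the curcumin controls and 10900 after TNBS on curcumin, where 2 arrays lie apart. For TNBS on the standard diet, Sdf2l1, a partner of Hspa5, and Ppib, a prolyl isomerase, had 0.46 ± 0.20 and 0.41 ± 0.18. Ero1a, the oxidase that drives disulfide formation, had 0.21 ± 0.14 in the same comparison. Nucb2, a calcium-binding protein, was below the filter and read 42.7 to 650.8.

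Among the 8 degradation genes, 1 was higher at an unadjusted p under 0.05 for TNBS on the standard diet (Edem2, 0.34 ± 0.12), beside 3.94% of all genes, and 1 for curcumin under the control enema (Syvn1, 0.29 ± 0.11), beside 1.70%. The medians were 0.12, 0.18, -0.18 and -0.07. Herpud1, a scaffold of the ubiquitin ligase complex, read 2089, 2049 and 1562 in the standard controls, 2197, 1708 and 2371 after TNBS, 2952, 2006 and 2412 in the curcumin controls and 1939, 2005 and 1690 after TNBS on curcumin. The curcumin controls were above all curcumin TNBS samples, by a narrow margin at the nearest pair. That difference was -0.37 ± 0.17 (limma adjusted p = 1), and the second probe set gave -0.04 ± 0.23.

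Sel1l, the adaptor of the ubiquitin ligase Syvn1, read 733.3, 805.5 and 797.8 in the standard controls, 1025, 872.2 and 982.4 after TNBS, 994.9, 833.9 and 904.7 in the curcumin controls and 943.8, 849.6 and 661.5 after TNBS on curcumin. The standard controls were below the standard TNBS samples and below the curcumin controls, with differences of 0.29 ± 0.14 and 0.22 ± 0.14 (limma adjusted p = 0.581 and 0.998). Its other 4 tested probe sets gave -0.04 to 0.28 and 0.01 to 0.26. Syvn1 read 1212, 1214 and 1115 in the standard controls and 1436, 1404 and 1489 in the curcumin controls, and a probe set on 430B gave 0.56 ± 0.17 for that comparison and -0.69 ± 0.17 for TNBS on curcumin (limma adjusted p = 0.997 and 0.0685).

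Edem2 read 901.3, 832 and 779 in the standard controls, 1045, 1015 and 1128 after TNBS, 870.7, 954 and 991.4 in the curcumin controls and 898.1, 754.8 and 810.7 after TNBS on curcumin. The standard TNBS samples were above all 9 others, and curcumin under TNBS gave -0.37 ± 0.12 (limma adjusted p = 0.296). A dim probe set of Edem2 on 430B gave 0.43 ± 0.32, the opposite sign, with the 2 arrays that lie apart included. Edem1, of the same family, and Derl1, Derl2 and Derl3, channel proteins of the export path, lay between -0.20 and 0.23 in all 4 comparisons on their own probe sets. Another Derl1 probe set gave 0.37 ± 0.16 for curcumin under the control enema (limma adjusted p = 0.998), and a dimmer one gave -0.19 ± 0.20. A brighter Derl1 probe set on 430B had mean signals of 2710 in the standard controls and 3380 after TNBS. Its means were 3460 in the curcumin controls and 2510 after TNBS on curcumin, where 2 arrays lie apart.

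The translocation and glycosylation genes had medians of 0.20, 0.11, -0.19 and -0.34. Sec61b read 2903, 3102 and 2878 in the standard controls, 3912, 4325 and 4609 after TNBS, 3354, 3986 and 4238 in the curcumin controls and 3650, 3506 and 2999 after TNBS on curcumin. The standard TNBS samples were above all standard controls and above all curcumin TNBS samples. The difference was 0.53 ± 0.12 for TNBS on the standard diet (limma adjusted p = 0.138) and -0.34 ± 0.12 for curcumin under TNBS. Sec61a1, the pore subunit, gave 0.38 ± 0.13, 0.34 ± 0.13, -0.36 ± 0.13 and -0.40 ± 0.13. One of its dimmer probe sets gave 0.88 ± 0.21 for TNBS on the standard diet (limma adjusted p = 0.159). Ssr1, of the translocon-associated complex, and Stt3a, the catalytic subunit of oligosaccharyltransferase, lay between -0.27 and 0.21 on their own probe sets. An Ssr1 probe set on 430B gave -0.53 ± 0.18 for curcumin under TNBS (limma adjusted p = 0.113).

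Srp72, a protein of the signal recognition particle that brings nascent chains to the ER, held the strongest calls. Its dimmer probe set on 430B read 2614, 2170 and 2213 in the standard controls, 3142, 3352 and 3436 after TNBS, 2099, 2410 and 3389 in the curcumin controls and 1469, 1154 and 1101 after TNBS on curcumin. The curcumin TNBS samples were below all 9 others, the 2 arrays that lie apart lowest, and the standard TNBS samples were above the standard controls. It fell by 1.41 ± 0.18 for curcumin under TNBS (2.66-fold, limma adjusted p = 0.00359) and by 1.06 ± 0.18 for TNBS on curcumin (2.08-fold, adjusted p = 0.0328), and the interaction was -1.56 ± 0.25 (adjusted p = 0.034). With the 1 curcumin TNBS array that does not lie apart, these were -1.16, -0.80 and -1.31, and the adjusted p-values from that arm of 1 array were 0.164, 0.759 and 0.306. The gene's own probe set read 6996, 6950 and 6760 in the standard controls, 7488, 7306 and 7828 after TNBS, 7387, 6947 and 8058 in the curcumin controls and 6526, 4953 and 4378 after TNBS on curcumin. It gave -0.53 ± 0.15 and -0.51 ± 0.15 (limma adjusted p = 0.0721 and 0.0883), and -0.21 and -0.19 without the 2 arrays.

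The 27 members with several tested probe sets show how far single probe sets can be trusted. All probe sets of a member had the same sign in 17 of 27 for TNBS on the standard diet, 17 for curcumin under the control enema, 16 for TNBS on curcumin and 11 for curcumin under TNBS. Over all 89 probe sets, 70 were higher and 19 lower in the first, 73 and 15 in the second, 17 and 71 in the third, and 27 and 61 in the fourth.

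The 11 members with either form of the ER stress response element had medians of 0.15, 0.36, -0.27 and -0.06 in the 4 comparisons. The 23 tested members with a promoter and neither form had 0.22, 0.19, -0.16 and -0.14. The 3 tested members with the Atf4 motif (Asns, Chac1 and Herpud1) were all higher in the first 2 comparisons and all lower in the third. So were most of the 40 tested members, 33 and 35 being higher in the first 2 and 33 lower in the third. In the fourth, 1 of the 3 was higher and 2 were lower. Herpud1 is also among the 11 members above.

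Beyond the members, 95 of 108 other genes of the same pathways were tested and 0 were called in any comparison (limma, adjusted p under 0.05). At an unadjusted p under 0.05, 17 were higher and 1 lower for TNBS on the standard diet, beside 3.94% and 4.45% of all genes. For curcumin under the control enema 3 were higher and 1 lower, beside 1.70% and 1.88%. For TNBS on curcumin 1 was higher and 5 lower, beside 4.43% and 6.40%, and for curcumin under TNBS 1 and 13, beside 6.75% and 8.74%. Their medians were 0.17, 0.09, -0.06 and -0.16, and the last was -0.09 on 430A with the acinar term. The median of their interaction was -0.26 on 430A and -0.13 there with the array set term. Other genes of the Atf4 pathway supplied 10 of the 17. They included Psat1, an enzyme of serine synthesis (0.88 ± 0.23, limma adjusted p = 0.182), and Cebpb, a transcription factor also induced in inflammation (0.86 ± 0.21, adjusted p = 0.159). The smallest p of that list belonged to Cth, an enzyme of cysteine synthesis, which went the other way, at -0.57 ± 0.13 (limma adjusted p = 0.137). In the translocation and glycosylation list, Ostc and Ssr3, subunits of the glycosylation and translocon complexes, had 0.47 ± 0.14 and 0.39 ± 0.12 (limma adjusted p = 0.271 and 0.311). For TNBS on curcumin, Atf3, an early stress factor, had -1.42 ± 0.44 (limma adjusted p = 1).

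Markers of other cells also differed between the groups, and in whole tissue a change in the number of cells cannot be told apart from a change in RNA per cell. The 9 neutrophil markers had a mean log2 signal of 9.01, 8.45 and 8.86 in the standard TNBS samples and 6.44 to 7.65 in the other 9. Their summed signal was 4602 to 8587 there, 1173 to 1296 in the standard controls, 1224 to 1541 in the curcumin controls and 868 to 1792 after TNBS on curcumin. All 5 tested neutrophil markers were higher after TNBS on the standard diet, with a median of 1.04, and for TNBS on curcumin their median was -0.10. All 5 were lower on curcumin under TNBS, with a median of -1.17. Fibroblast markers had medians of 0.38 for TNBS on the standard diet and -0.24 for curcumin under TNBS, with 6 of 7 higher in the first and 6 of 7 lower in the second. Macrophage markers had 0.34 and -0.34, with all 5 tested higher and then all 5 lower. Adipocyte markers went the other way, with -0.66 and 0.59 and all 4 tested lower and then higher. Goblet cell markers had a median of 0.08 for TNBS on the standard diet, with 7 higher and 3 lower. For curcumin under TNBS they had -0.16, with 2 higher and 8 lower. Summed over 9 goblet markers on 430A, the signal was 84687 to 95209 in the standard TNBS samples and 75764 to 81948 in the standard controls. It was 68741 to 83534 in the curcumin controls and 72546 to 83728 after TNBS on curcumin. Their mean log2 signal was 12.85 to 13.03 in the standard TNBS samples and 12.93 in curcumin control replicate 3. The 8 plasma and B cell markers on 430A had mean log2 values of 8.77 to 9.39 in all 12 samples. Colonocyte markers had a median of 0.19 for curcumin under the control enema, with 9 higher and 1 lower. For TNBS on curcumin they had -0.13, with 2 higher and 8 lower. Their medians were -0.00 for TNBS on the standard diet and 0.05 for curcumin under TNBS. For curcumin under the control enema, neutrophil, macrophage, fibroblast and goblet markers had medians of 0.19, 0.13, -0.04 and -0.02. The part of these cells in the members' differences was not tested.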

How the data were processed

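Total RNA of 12 samples was measured on 430A and 430B arrays, 24 arrays in all. The authors deposited linear intensity values; the submitters' processing notes name GCOS as the software, without a version. They were used as deposited, with 2% trimmed means of 496.7 to 498.3 and median signals of 226.8 to 284 on 430A and 256.4 to 346.1 on 430B. Detection calls were not used here. Arrays have no read depth, so their number limits the precision.

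Signals were raised by 16 and log2-transformed, and probe sets with a mean above the 40th percentile were kept. Each array type was fitted alone with 4 group means over 12 arrays in limma 3.58.1 (R 4.3.3; lmFit, eBayes with trend; two-sided), adjusted by Benjamini-Hochberg, and checked on simulated data. A member is called when 1 of its probe sets has an adjusted p under 0.05. The members, branches and lists were chosen with earlier results of these data known.

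Named are Hspa5, Hsp90b1, Ddit3, Atf4, Xbp1, Atf6, Ern1, Ern2, Eif2ak3, Herpud1 and Sel1l, every called member, the 4 members with the smallest p in each comparison, and other probe sets of these that differ in sign or by over 0.5. The remaining members were named to account for all 42. Other pathway genes were named from the 3 smallest p of their list. Alternatives covered the pseudocount, filter, scaling, trend, samples in the fit, probe set rule, array set, outlying arrays, acinar level and each sample left out.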

Additional observations from a re-analysis of the deposited data

Results flagged for a closer look

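The dimmer Srp72 probe set on 430B had a TNBS difference on the curcumin diet that differed from the one on the standard diet in the test of the difference itself, with an interaction of -1.56 (limma adjusted p = 0.034). It was higher after TNBS in all 3 samples on the standard diet and lower in all 3 on curcumin. Replicates 2 and 3 of the curcumin TNBS group lay apart on 430B, and with the 1 remaining array of that group the interaction was -1.31 (adjusted p = 0.306, from an arm of 1 array assumed to vary like the other groups). The part of those arrays in the difference was not tested further.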

How the results depend on the processing

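For curcumin under TNBS, 2 members were called. This became 1 with no filter, with the 60th percentile, with only the groups compared and with the acinar covariate, 4 at an adjusted p under 0.1, and 0 without the 2 outlying 430B arrays, also with the array set term, an alternative chosen after seeing the data. For TNBS on curcumin, 1 was called. This became 0 without those arrays (also with the set term), with no trend and with only the groups compared, 2 with the acinar covariate and 4 at an adjusted p under 0.1. For the interaction, 1 was called. This became 0 with no filter and without those arrays (also with the set term), and 2 at an adjusted p under 0.1. For curcumin under the control enema the count went from 0 to 1 at an adjusted p under 0.1, the second Hspa5 probe set. Leaving out 1 sample at a time gave 0 to 1 called members for TNBS on the standard diet, 0 to 7 for TNBS on curcumin, 1 to 6 for curcumin under TNBS and 0 to 6 for the interaction, the highest without curcumin TNBS replicate 1. Without that replicate, the curcumin TNBS group on 430B consists only of the 2 outlying arrays, so these higher counts do not strengthen the calls. Without the 2 outlying arrays the curcumin TNBS group has 1 array on 430B, so a lost call there says little, and for curcumin under TNBS the differences went from -1.41 to -1.16 in Srp72 and from -1.47 to -1.17 in Atf6. The median of the interaction moved from -0.40 to -0.31 when the probe sets of each gene were averaged. The other 63 medians under other settings, and all 60 with 1 sample left out, moved by less than 1 SD between replicates. No named member past the threshold changed sign, while Ern1, not past it, went from -0.25 to 0.21 for curcumin under TNBS without the outlying arrays. No paired analysis was possible because the replicate numbers were given in accession order.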
